A study of Mus musculus with 12 samples.

Results

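Cyp2b9, Cyp2b10 and Cyp2b13 are cytochromes P450 of the Cyp2b subfamily, and their transcripts were followed across the livers of OXR1A knockout and wild-type mice. They were taken by gene symbol from the table of all liver genes, and make up 3 of its 18560 genes. The members were chosen by name with earlier results of these libraries known, that is, selected on FPKM values such as the high Cyp2b9 and Cyp2b13 levels of knockout males. Levels and differences of the 3 genes are therefore given as a description, with no test. The table lists 2 further subfamily genes, Cyp2b19 and Cyp2b23, which stood at 0 to 0.03 FPKM and 0 to 0.63 FPKM (fragments per kilobase of transcript, scaled to the mapped fragments of the library) in the 12 libraries.

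The libraries came from livers of mice aged 12 months, 3 each from OXR1A-/- (KO) males, wild-type (WT) males, KO females and WT females. OXR1A is 1 of the proteins encoded by Oxr1, which protects cells against oxidative damage. The comparison addresses what loss of OXR1A changes in the liver, where the series describes fat accumulation in male mutants. The labels name no strain, no deleted exon and no Cre driver. Nothing in them says that samples within a group are different animals, and p-values therefore cover only the spread among these samples.

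Cyp2b enzymes sit in the endoplasmic reticulum of hepatocytes, mainly near the central vein, and oxidise drugs, steroids and fatty acids with electrons passed on by P450 reductase (Por). Cyp2b10 is the classic target of the xenobiotic receptor CAR (Nr1i3), through which phenobarbital raises it. Cyp2b9 and Cyp2b13 are known as genes of adult female mouse liver, where growth hormone is secreted more steadily than the pulses of males, and male-type pulses acting through STAT5b hold such genes down.

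The subfamily lies in a cluster of Cyp2 genes on chromosome 7. In RefSeq on GRCm38.p6, Cyp2b10 (Entrez gene 13088) spans 25897658 to 25926624, Cyp2b13 (13089) spans 26061388 to 26096197 and Cyp2b9 (13094) spans 26173350 to 26210661. Cyp2b13 and Cyp2b9 are neighbours there, and their upstream sequences are shown because they are nearly the same while their levels in these livers were not. Each line gives the 250 bases before the transcript start used in the RefSeq promoter table, all on the plus strand, with chr7:26173159-26173408 for Cyp2b9, chr7:26061245-26061494 for Cyp2b13 and chr7:25897408-25897657 for Cyp2b10. For Cyp2b9 and Cyp2b13 the RefSeq gene span begins inside this window, at another annotated start. Capitals mark matches to AGGTCA, the core motif of nuclear receptor sites, and to TTGCNNAA, a pattern of C/EBP sites.
Cyp2b9: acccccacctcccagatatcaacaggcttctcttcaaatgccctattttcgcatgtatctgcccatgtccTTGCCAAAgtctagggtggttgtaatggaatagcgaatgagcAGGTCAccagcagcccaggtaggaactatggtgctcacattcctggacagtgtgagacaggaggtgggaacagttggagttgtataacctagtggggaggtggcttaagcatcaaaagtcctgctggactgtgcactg
Cyp2b13: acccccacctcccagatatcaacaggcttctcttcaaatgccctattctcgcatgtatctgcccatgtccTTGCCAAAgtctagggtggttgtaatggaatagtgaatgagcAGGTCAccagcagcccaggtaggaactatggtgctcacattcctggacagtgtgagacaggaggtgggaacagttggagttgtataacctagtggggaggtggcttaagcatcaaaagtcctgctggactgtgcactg
Cyp2b10: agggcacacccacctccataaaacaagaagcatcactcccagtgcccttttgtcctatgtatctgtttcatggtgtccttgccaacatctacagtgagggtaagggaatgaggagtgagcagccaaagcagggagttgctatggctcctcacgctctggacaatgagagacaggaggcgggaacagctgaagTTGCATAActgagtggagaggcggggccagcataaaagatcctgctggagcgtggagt

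The Cyp2b13 and Cyp2b9 windows were identical at 248 of 250 bases (99.2%). The 2 substitutions from Cyp2b13 to Cyp2b9 were C48T and T104C, counted from 1 at the 5′ end of the window. The Cyp2b10 window matched that of Cyp2b9 at 182 of 240 aligned bases (75.8%). AGGTCA was found once each in the Cyp2b9 and Cyp2b13 windows, 138 bases before the start, and was not found in the Cyp2b10 window; 14.0% of all promoter windows of this length held it on either strand. TTGCNNAA was found in all 3 windows, as TTGCCAAA 180 bases before the start in Cyp2b9 and Cyp2b13 and as TTGCATAA 58 bases before it in Cyp2b10, and 9.56% of all windows held it. The letters TTCNNNGAA (STAT5), TGTTTAC (FOXA), TATAAA and a direct repeat of AGGTCA with 4 bases between the copies (DR4, the type CAR binds) matched none of the 3 windows on either strand, beside 7.02%, 3.17%, 12.4% and 0.0152% of all windows. A match or its lack describes only these letters in this window.

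The transcripts were less alike than the upstream windows. Those of Cyp2b9 and Cyp2b13 were identical at 91.9% of 1848 aligned bases, and that of Cyp2b10 at 87.5% of those aligned with Cyp2b9. Of the windows of 50 bases along the Cyp2b13 transcript, 27.3% occurred letter for letter in a transcript of another gene, against 11.2% for Cyp2b9 and 9.69% for Cyp2b10. With 100 bases these shares were 9.29%, 1.18% and 0%. Of the Cyp2b13 windows, 10.8% were shared with Cyp2b9 and 8.0% with Cyp2b10 at 50 bases, and 1.18% with Cyp2b9 at 100 bases; Gm45225, which the table does not list, also shared windows of both lengths. The sources used here give neither the read length nor the handling of reads that fit several genes, so the separate values of the 3 genes are uncertain, and the sum of Cyp2b9 and Cyp2b13 is free only of errors between that pair.

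Cyp2b9, the leading Cyp2b transcript of female liver, was far higher in KO males than in WT males, yet below the female level. In KO males it was listed at 107.52, 131.27 and 38.14 FPKM, against 1.0, 0.42 and 0.76 FPKM in WT males. The groups were far apart, and KO male 3 was the lowest of the KO males. In females Cyp2b9 was listed at 384.59, 298.36 and 446.91 FPKM in KO livers, against 401.29, 442.22 and 448.27 FPKM in WT livers. These groups overlapped, with KO female 2 the lowest. The mean in KO males was 92.3 ± 48.4 FPKM, or 127 times the 0.727 ± 0.291 FPKM of WT males and 21.4% of the 431 ± 25.6 FPKM of WT females (SD, n = 3 each). On the log2(FPKM + 1) scale, KO minus WT was 5.59 in males (standard error, SE, 0.36) and -0.21 in females (SE 0.36), and the male difference exceeded the female one by 5.80 (SE 0.50). The level rank of Cyp2b9 among 18560 genes was 801 in KO males, 11136 in WT males, 190 in KO females and 158 in WT females.

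Cyp2b13, the near neighbour of Cyp2b9 and another P450 typical of female liver, was low in all males and stood higher in KO than in WT livers of both sexes. KO males had 0.88, 8.18 and 7.07 FPKM, against 0, 0.08 and 0.09 FPKM in WT males. All KO males were above all WT males, and KO male 1 was the lowest of them. KO females had 273.10, 291.92 and 182.57 FPKM, against 127.92, 147.95 and 85.76 FPKM in WT females. Here too the groups did not overlap, and replicate 3 was the lowest library in each. The mean in KO females was 249 ± 58.5 FPKM, 2.07 times the 121 ± 31.7 FPKM of WT females. In KO males the mean of 5.38 ± 3.93 FPKM was 4.46% of that of WT females. The WT male mean of 0.0567 ± 0.0493 FPKM rested on about 9 fragments in 3 libraries, so no fold is given against it. The log2 difference between KO and WT was 2.30 (SE 0.48) in males and 1.05 (SE 0.48) in females. With a pseudocount of 0.1 the male difference was 4.68, since WT male values near 0 make its size depend on the pseudocount.

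Cyp2b10, the CAR-responsive member, overlapped between genotypes in both sexes. It was listed at 2.64, 5.58 and 7.87 FPKM in KO males, against 4.23, 2.40 and 4.04 FPKM in WT males. In females it was listed at 14.63, 8.48 and 16.52 FPKM in KO livers, against 14.82, 11.04 and 27.46 FPKM in WT livers. The log2 difference between KO and WT was 0.42 in males and -0.35 in females (SE 0.38 each). KO males gave 5.36 ± 2.62 FPKM and WT males 3.56 ± 1.01 FPKM, while KO females gave 13.2 ± 4.20 FPKM and WT females 17.8 ± 8.60 FPKM. Without KO male 3 the male difference was 0.13, and without WT female 3 the female one was -0.01.

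**Figure D1:**
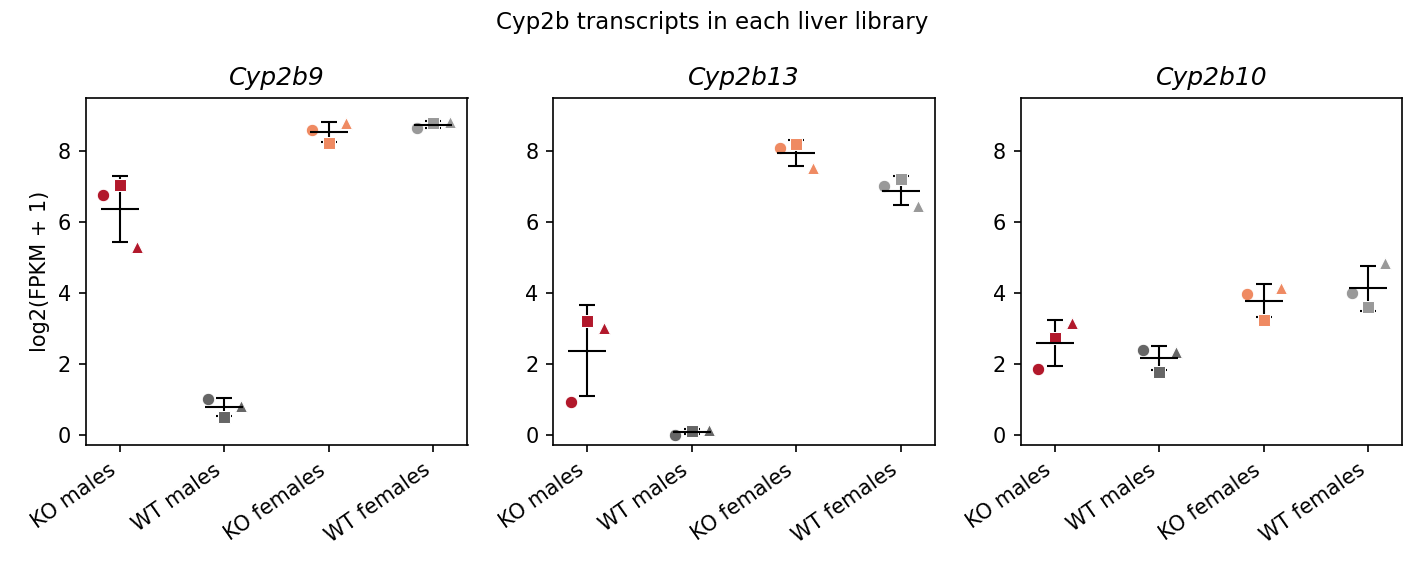
Levels of Cyp2b9, Cyp2b13 and Cyp2b10 as log2(FPKM + 1) in the 12 liver libraries, with circles, squares and triangles for replicates 1, 2 and 3, and black lines for the group mean and SD (n = 3). Cyp2b9 and Cyp2b13 in KO males lay between the WT males and the females, while Cyp2b10 in KO males overlapped with WT males.

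All 3 genes were higher in females, in both genotypes. Between WT females and WT males the log2 difference was 7.98 for Cyp2b9, 6.81 for Cyp2b13 and 1.97 for Cyp2b10. Between KO females and KO males it was 2.17, 5.56 and 1.2. The gap between the sexes in Cyp2b9 was thus 5.80 smaller on the log2 scale in KO mice, against 1.25 (SE 0.67) smaller for Cyp2b13 and 0.77 (SE 0.53) for Cyp2b10. The Cyp2b13 value was 3.63 with a pseudocount of 0.1, where that of Cyp2b9 was 6.90, and ran from 0.83 without KO male 2 to 1.98 without KO male 1. Neither comparison between the sexes had any overlap of the groups in the 3 genes. The order of mean levels, high to low, was WT females, KO females, KO males and WT males for Cyp2b9 and Cyp2b10, and KO females, WT females, KO males and WT males for Cyp2b13. The neighbours that overlapped in this order were the females of both genotypes for Cyp2b9 and Cyp2b10, and the males of both genotypes for Cyp2b10.

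Groups that do not overlap were common in these libraries. KO and WT males did not overlap in 2 of the 3 genes (Cyp2b9 and Cyp2b13), beside 23.7% of the 11514 genes tested. KO and WT females did not overlap in 1 gene, Cyp2b13, beside 17.6% of genes. The sexes did not overlap in 3 of 3 genes, beside 40.2% of genes in WT and 22.1% in KO mice. Nothing is read from these counts, since the subfamily was chosen with these values known.

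The make-up of the Cyp2b pool also differed between groups. In KO males the summed Cyp2b FPKM was 111, 145 and 53.1, and Cyp2b9 made up 96.7%, 90.4% and 71.8% of it. In WT males the sum came to only 2.90 to 5.23 FPKM, and Cyp2b10 made up 80.9% to 82.8% of it. The KO male library with the smallest share of Cyp2b9, KO male 3, had the largest shares of Cyp2b13 (13.3%) and Cyp2b10 (14.8%). Among females, Cyp2b13 made up 40.6%, 48.7% and 28.2% of the sum in KO livers, against 23.5%, 24.6% and 15.3% in WT livers. The ratio of Cyp2b13 to Cyp2b9 ran from 0.409 to 0.978 in KO females and from 0.191 to 0.335 in WT females. The sum of Cyp2b9 and Cyp2b13, in which reads assigned to the wrong 1 of this pair still count, was 657.69, 590.28 and 629.48 FPKM in KO females, against 529.21, 590.17 and 534.03 FPKM in WT females. The lowest KO female was thus level with the highest WT female in the sum, and the groups stood further apart in Cyp2b13 alone. In KO males the ratio of Cyp2b13 to Cyp2b9 was 0.00818, 0.0623 and 0.185, so KO males 1 and 2 lay below the range of the WT females and KO male 3 just below it.

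**Figure D2:**
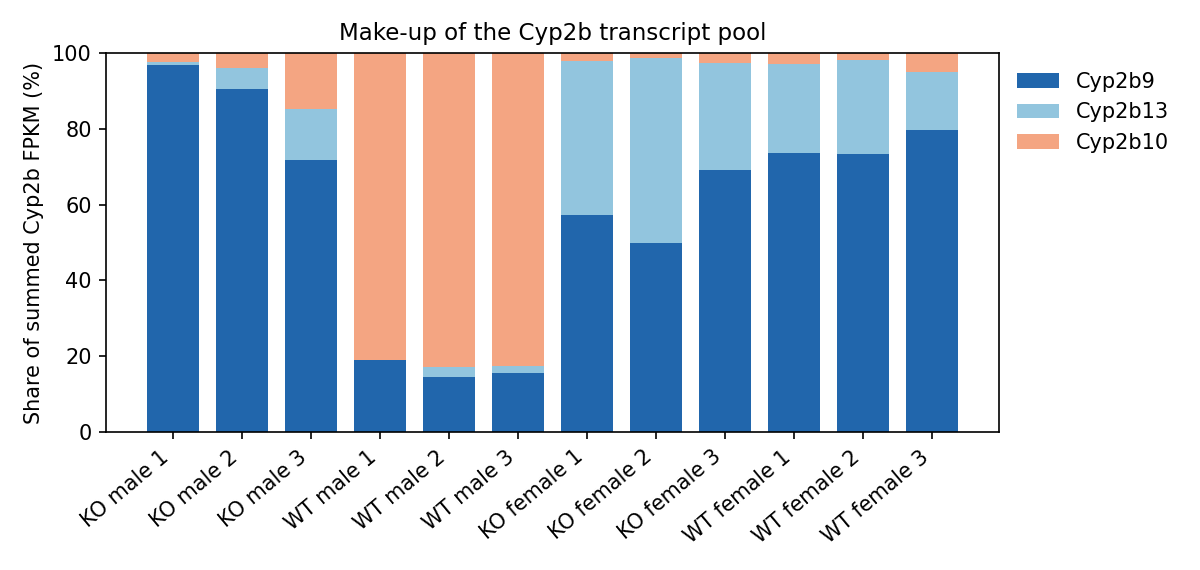
Share of the summed FPKM of all 5 Cyp2b genes (percent) held by Cyp2b9, Cyp2b13 and Cyp2b10 in each of the 12 libraries; Cyp2b19 and Cyp2b23 together held at most 0.131%. KO male pools were mostly Cyp2b9, WT male pools mostly Cyp2b10, and KO female pools held a larger part of Cyp2b13 than WT female pools.

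Sex check genes and markers of other cells also differed between some libraries or groups. Xist, which silences an X chromosome in females, was listed at 0.08, 0.05 and 0.82 FPKM in KO males, 0.05, 0.04 and 0.08 FPKM in WT males and 19.2 to 45.92 FPKM in females, and the Y-linked Eif2s3y at 0.85 in KO female 1 and 1.89 in WT female 1, against 0 to 0.10 in the other females. Without these 3 libraries the male difference in Cyp2b9 was 6.13 and the female difference in Cyp2b13 was 1.03. The male difference in Cyp2b13 was 1.98 without them, against 2.30 with all libraries. Whether the trace in KO male 3 plays a part in its Cyp2b13 value was not tested. KO male 3, with the trace of Xist, was the lowest of the KO males in Cyp2b9, the highest in Cyp2b10 (7.87 FPKM) and in the female-typical Cux2 (0.19 FPKM, against 0.03 in each of the others), and between the others in Cyp2b13 (7.07 FPKM). The 7 listed hepatocyte markers (among them Alb, Ttr and Apoa1) summed to 50025 to 53952 FPKM in KO males and 56938 to 66810 in WT males, with 0 of 7 genes called by limma, beside 2.55% of the 11514 genes tested between KO and WT males. Macrophage markers summed to 335 to 783 FPKM in KO males and 150 to 291 in WT males, with 6 of 11 called higher, and all 6 calls were lost without WT male 3. Sinusoidal endothelial markers summed to 112 to 127 FPKM in KO males and 72.5 to 82.7 in WT males, with 5 of 9 called higher, of which Gpr182 alone was kept in 12 of 12 fits that each left out 1 library. Stellate cell markers summed to 142 to 221 FPKM in KO males and 92.2 to 113 in WT males, with 1 of 8 (Dcn) called higher, a call kept in 3 of 12 fits that left out a library and not made after median-ratio scaling (adjusted p = 0.0973), while 0 of 4 tested cholangiocyte and 0 of 5 tested lymphocyte markers were called. After scaling to median ratios 2 of the 11 macrophage and 4 of the 9 endothelial markers were called higher. In KO and WT females macrophage markers summed to 466 to 609 and 385 to 594 FPKM. Endothelial markers summed to 134.6 to 143.5 and 133.7 to 151.8 FPKM there. WT males were thus the lowest group in both lists. Between WT females and WT males 8 of 11 macrophage and 8 of 9 endothelial markers were called higher, beside 11.1% of genes. Between KO females and KO males 0 were called in either list. None of these markers was at 0 in all libraries of a male group, and their part in the Cyp2b values was not tested. In bulk liver, fewer cells of a type and less RNA per cell cannot be told apart. Pericentral markers, the zone where Cyp2b genes are known to be expressed, summed to 4275 to 6368 FPKM in KO males and 4900 to 5798 in WT males; Rhbg rose (adjusted p = 0.0336, not called after median-ratio scaling at 0.0682), Cyp27a1 fell (adjusted p = 0.0294) and 9 of 11 did not pass. These calls were kept in 2 and 4 of 12 fits that left out a library. Periportal markers summed to 2363 to 3527 FPKM in KO males and 3686 to 4644 in WT males. Their median log2 difference was -0.46, beside 0.19 for all tested genes. Of the 9, 1 was called lower, Cdh1 (log2 difference -1.87, adjusted p = 0.00243). After median-ratio scaling or quantile normalization 2 were called lower. Cdh1 was also lower in KO females, without being called (log2 difference -0.89, SE 0.22, adjusted p = 0.498).

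The median log2 difference of all tested genes between KO and WT males was 0.19. Of the genes called there, 245 were higher and 49 lower (2.13% and 0.426% of those tested); after median-ratio scaling, which brought that median to 0.01, 71 were higher and 81 lower, so calls of small rises depend on the scaling. Among the libraries WT male 2 had the largest FPKM sum, 667434, against 526203 to 600972 in the others. Fits that each left out 1 library, WT male 2 among them, called 58 to 570 genes between KO and WT males. Without WT male 2, 4 male-biased list genes were called in place of 9. The part of its large FPKM sum in these calls was not tested. Other P450 genes of the same cluster were compared in the same fit. It called 2.55% of genes between KO and WT males and 0.0174% between KO and WT females. The comparisons share groups with each other, and their values are given side by side. Of the 10 neighbours listed, 6 had enough signal to test. Cyp2a22, in the Cyp2a group of the cluster, rose in KO males to 14.75, 27.88 and 9.70 FPKM, against 4.99, 3.98 and 4.83 FPKM in WT males (log2 difference 1.60, SE 0.30, adjusted p = 0.0234). This call was lost without KO male 1 or any 1 of the 3 WT males, with an adjusted p of up to 0.0766 without WT male 3. The other 5 did not pass in males. Among them Cyp2a4, a steroid 15-alpha-hydroxylase of female liver, had 1.69, 5.32 and 14.17 FPKM in KO males, against 0.15, 0.26 and 0.32 FPKM in WT males (log2 difference 2.36, SE 0.60, adjusted p = 0.0580). In females Cyp2a4 stood lower in KO livers, whereas Cyp2b13 stood higher. Cyp2a4 had 76.72, 57.65 and 240.91 FPKM in KO females, against 654.98, 1036.28 and 464.40 FPKM in WT females, and the groups did not overlap. None of the 6 passed in females (Cyp2a4 log2 difference -2.72, SE 0.60, adjusted p = 0.390; Cyp2a22 -1.12, SE 0.30, adjusted p = 0.587; Cyp2g1 -0.81, SE 0.24, adjusted p = 0.593). The Cyp2a genes share sequence among themselves, so their separate values are uncertain too. Cyp2f2, a P450 of periportal hepatocytes and of the lung airway, differed by -0.32 (SE 0.16) in males and -0.36 in females without passing. Cyp2s1 and Cyp2t4 did not reach the level needed for a test.

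**Figure D3:**
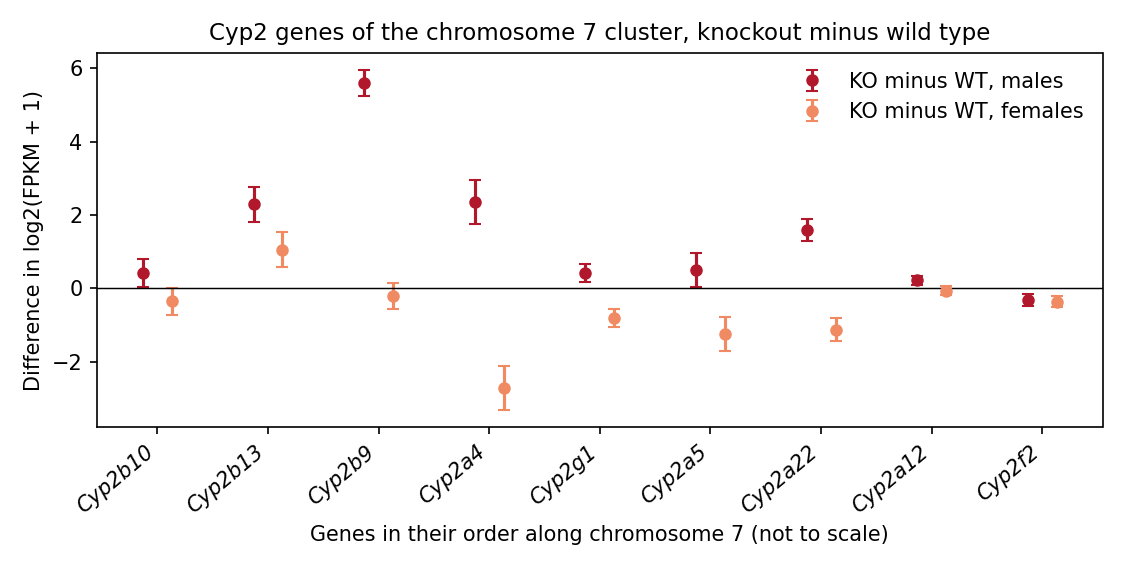
Difference in log2(FPKM + 1) between KO and WT livers (points, with bars for the SE from limma) for the 9 tested Cyp2 genes of the chromosome 7 cluster, dark red for males and orange for females. In males Cyp2b9 stood apart at 5.59, and in females Cyp2b13 at 1.05 was above 0 while Cyp2a4, Cyp2a5, Cyp2a22 and Cyp2g1 lay below it.

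The xenobiotic receptors and their partners were looked at because CAR and the related receptor PXR (Nr1i2) drive Cyp2b10. None of the 16 genes of this list was called in KO males, and their median log2 difference of 0.19 was that of all tested genes (0.19). Nr1i3, which encodes CAR, was listed at 157.15, 108.22 and 86.27 FPKM in KO males, against 92.44, 69.94 and 104.53 FPKM in WT males (log2 difference 0.37, SE 0.21, adjusted p = 0.303). The KO and WT males overlapped. Nr1i2 was level, at 28.34, 25.77 and 26.56 FPKM in KO males and 28.15, 25.08 and 25.86 FPKM in WT males. The transcription factor Hnf4a (log2 difference 0.42, adjusted p = 0.133) and the receptor partner Rxra (0.37, adjusted p = 0.213) did not pass either. In KO females 0 of 16 were called.

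Of 27 other genes known to respond to CAR or PXR, 2 rose in KO males, 1 fell and 24 did not pass. Of all tested genes, 2.13% were called higher there and 0.426% lower. The list median log2 difference was 0.17, beside 0.19 for all tested genes. Aldh1a1, a retinal dehydrogenase, rose to 1726, 1546 and 1384 FPKM in KO males, against 915, 663 and 742 FPKM in WT males (log2 difference 1.01, adjusted p = 0.0131). Its relative Aldh1a7 rose by 0.68 (adjusted p = 0.0330), and the carboxylesterase Ces2a fell by 0.97 (adjusted p = 0.0258). After median-ratio scaling Aldh1a1 (adjusted p = 0.0581) and Aldh1a7 (0.246) were not called and Ces2a was. After quantile normalization Aldh1a1 (adjusted p = 0.0272), Aldh1a7 (0.0333) and Ces2a (0.0218) were all called. The calls also depended on single libraries: Aldh1a1 was lost without WT male 3 (adjusted p = 0.0591), Ces2a was lost in 5 of 12 fits that each left out 1 library, those without any 1 of the 6 male libraries other than KO male 3, and Aldh1a7 in 7 of 12. Cyp2c29, a P450 that phenobarbital raises along with Cyp2b10, had 813, 569 and 1360 FPKM in KO males, against 1023, 836 and 1104 FPKM in WT males. Cyp3a11, the main PXR target among P450 genes, had 877, 1911 and 2533 FPKM in KO males, against 2822, 1845 and 2080 FPKM in WT males. Both pairs of groups overlapped. In KO females 0 of 27 were called. Between WT females and WT males 6 of the 27 were higher and 4 lower, beside 13.4% of all genes called in that comparison, 11.1% higher and 2.31% lower.

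Among 15 tested electron partners and haem genes 0 were called in KO males or KO females. Por, the reductase that feeds electrons to Cyp2b enzymes, had 67.19, 57.90 and 87.81 FPKM in KO males, against 75.91, 91.43 and 123.68 FPKM in WT males (log2 difference -0.44, SE 0.28). Hmox1, which breaks down haem, had 19.91, 33.06 and 14.80 FPKM in KO males, against 10.19, 9.75 and 10.39 FPKM in WT males (log2 difference 1.01, SE 0.27, adjusted p = 0.0649). The Hmox1 groups did not overlap, and the gene did not pass.

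The table was also read for genes known, like Cyp2b9 and Cyp2b13, to be female-biased in mouse liver. Of 26 such genes outside Cyp2b, 3 rose in KO males and 23 did not pass, beside 2.13% of all tested genes called higher. The list median log2 difference was 1.18, beside 0.19 for all genes. This list and that of male-typical genes below were chosen with earlier results of these data known. Their counts and medians are therefore a description. Slc22a27, an organic anion transporter family member, rose to 8.53, 16.41 and 8.39 FPKM in KO males, against 1.79, 0.97 and 1.72 FPKM in WT males (log2 difference 2.23, SE 0.23, adjusted p = 0.00172), a call kept in 12 of 12 fits that each left out 1 library. Hao2, a peroxisomal hydroxyacid oxidase, rose to 2.03, 3.85 and 1.40 FPKM, against 0.08, 0.25 and 0.25 FPKM in WT males (1.46, adjusted p = 0.0210), and was lost without KO male 2, WT male 1 or WT male 3. Abcd2, a peroxisomal fatty acid transporter, rose by 1.05 (adjusted p = 0.0484), a call kept in only 1 of the 12 fits, that without KO male 3, and not made after median-ratio scaling (adjusted p = 0.0947). In KO females 0 of 26 were called, with a median of -0.41. Between WT females and WT males 25 of 26 were called higher, beside 11.1% of all tested genes, with a median log2 difference of 5.63. The list was made of genes known for this difference.

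Of 20 genes typical of male liver, 9 fell in KO males, 0 rose and 11 did not pass. Of all tested genes, 0.426% were called lower and 2.13% higher there. The list median log2 difference was -1.63, beside 0.19 for all tested genes. The 9 were Selenbp2, Hsd3b5, C6, Ces3b, Serpina1e, Cyp4a12b, Ugt2b38, Mup21 and Mup20. Selenbp2, a selenium-binding protein, fell to 17.73, 16.97 and 17.46 FPKM in KO males, against 214.99, 184.35 and 114.70 FPKM in WT males (log2 difference -3.18, SE 0.21, adjusted p = 2.73e-05). Hsd3b5, a steroid dehydrogenase, fell to 1.24, 0.16 and 7.98 FPKM, against 80.63, 73.53 and 69.09 FPKM in WT males (-4.72, SE 0.53, adjusted p = 0.00196). Both calls were kept in 12 of 12 fits without a library. In KO females Selenbp2 was also lower, at 13.9, 11.75 and 13.81 FPKM, against 28.37, 33.74 and 22.63 FPKM in WT females. It was not called there (log2 difference -1.03, SE 0.21, limma adjusted p = 0.345). Hsd3b5 was highest among KO males in KO male 3, the library lowest in Cyp2b9. In a fit restricted to the 6 male livers the limma test called 1 list gene, Selenbp2 (adjusted p = 0.0117). That count covers the lists other than the cell type and sex check markers. Among the listed genes outside Cyp2b, the KO effect differed between males and females for Slc22a27 and Selenbp2 (interaction, adjusted p = 0.0436 each), beside 0.0261% of all genes, and each call was kept in only 2 of 12 fits that left out a library. The count of 9 ran from 4 to 15 when each library was left out, with 4 without WT male 2 or WT male 3 and 15 without KO male 3.

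Among 17 regulators of sex-biased liver transcription, 0 were called in KO males or KO females. Trim24, a cofactor expressed more in female liver, had 5.26, 4.88 and 4.98 FPKM in KO males, against 2.67, 1.93 and 3.39 FPKM in WT males (log2 difference 0.74, SE 0.22, adjusted p = 0.0906). Tox, another gene higher in females, had 1.85, 2.03 and 2.18 FPKM in KO males, against 1.27, 0.80 and 1.40 FPKM in WT males (0.50, SE 0.17, adjusted p = 0.116). Cux2, a female-typical repressor of male genes, stayed at 0.03 to 0.19 FPKM in KO males and 0.02 to 0.04 FPKM in WT males, while females had 1.76 to 14.85. Stat5b had 15.00, 11.11 and 8.22 FPKM in KO males, against 15.69, 6.90 and 14.40 FPKM in WT males, with overlap.

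**Figure D4:**
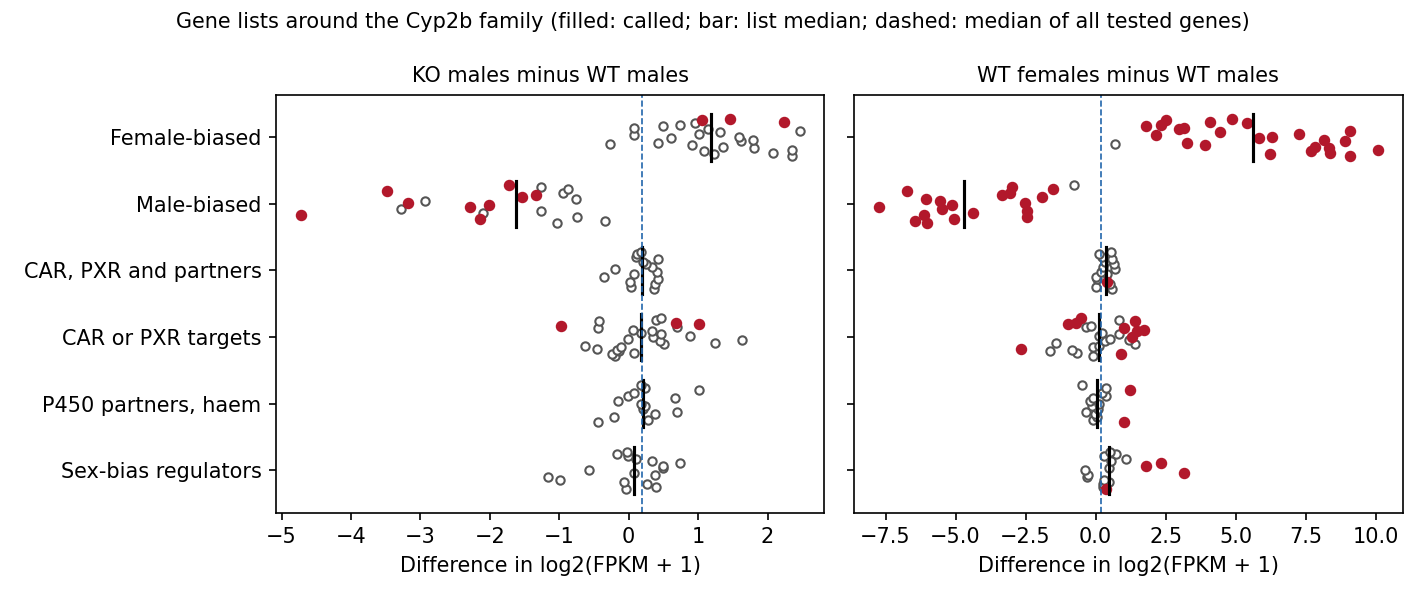
Difference in log2(FPKM + 1) of each tested gene in 6 lists between KO and WT males (left) and between WT females and WT males (right); filled points passed the limma test at an adjusted p of 0.05, black bars are list medians and the dashed line is the median of all tested genes (0.19 and 0.21). The female-biased and male-biased lists lay on either side of that line in KO males (medians 1.18 and -1.63), and the other lists lay near it. The lists were chosen with earlier results of these data known, so their positions are a description.

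The genes whose profile over the 12 libraries was most like that of each Cyp2b gene were found by the root-mean-square distance between profiles of log2(FPKM + 1), each scaled to a mean of 0 and an SD of 1. Identical profiles have a distance of 0, and the median over all genes was 1.09 for Cyp2b9. The nearest to Cyp2b9 was Slc22a27 (0.197), with 11.1 FPKM in KO males, 1.49 in WT males, 35.6 in KO females and 40.7 in WT females, followed by B3gnt3 (0.244), Cyp2c39 (0.249), Oit3 (0.258) and Aldh9a1 (0.273). Nearest to Cyp2b13 were Tcn2 (0.216), Hao2 (0.242), Serpinb1a (0.242), Cyp2c68 (0.248) and Gnpda1 (0.254). Serpinb1a averaged 55.4 FPKM in KO females and 41.4 in WT females, and Tcn2 99.9 and 96.8. Nearest to Cyp2b10, at larger distances, were Tm4sf1 (0.327), Cyp3a44 (0.358), Cyp3a16 (0.386), Rfx4 (0.391) and Bmp6 (0.400). The Cyp2b genes were not each other's nearest: Cyp2b9 and Cyp2b13 lay 0.487 apart, and 265 other genes were nearer to Cyp2b9 than Cyp2b13 was. All profiles share the same 12 libraries and the large difference between the sexes.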

How the data were processed

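Liver RNA from 12 mouse samples was measured by RNA sequencing: per the labels' protocols, poly(A) RNA was captured and copied with random primers. The deposited values are FPKM per gene, per the file headers; TopHat2 and mm10 are named in the submitters' processing notes, and the sources used here do not give the quantifier, the annotation or any filter. All per-sample columns were used, leaving out 0. FPKM of short transcripts fell in even steps, from which about 20200000 to 30200000 mapped fragments per library were estimated, with values on average 0.138 to 0.192 of a fragment from a whole number (0.25 with no steps); the steps were fitted to make this small. About 0.0177 to 0.0263 FPKM of Cyp2b13 was worth 1 fragment. No counting intervals were made.

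A gene was kept if 3 or more libraries had 1 FPKM or more, which left 11514 genes and all 3 Cyp2b genes described. The fit used limma 3.58.1 (R 4.3.3) on log2(FPKM + 1), with 1 mean per group over 12 libraries and a variance trend. Two-sided p-values were adjusted by Benjamini-Hochberg across the 11514 genes, and 0.05 was the threshold for a call. Log2 differences on this scale understate changes of low genes. FPKM means are ± SD (n = 3). The fit was tested on simulated data. Promoters are from RefSeq (GRCm38.p6, the same build as mm10), where all 3 genes matched, and transcripts from GENCODE mouse release 21; alignments used Biopython 1.88. Members and gene lists were chosen with earlier results of these data known. Named genes were the Cyp2b genes, up to 4 genes of smallest p per list and comparison, the 5 most alike in profile, Oxr1 and the sex check genes; Cyp2c29, Cyp3a11, Cux2 and Stat5b, and others without a p, were named after their values were seen. Alternatives were a pseudocount of 0.1, other filters and scalings, no trend, a fit of only the groups compared, the replicate number as a block and each library left out. Oxr1 itself was listed at 22.1 to 25.0 FPKM in KO males, 12.1 to 23.3 in WT males, 19.7 to 21.0 in KO females and 17.4 to 20.7 in WT females; it covers all isoforms and so does not check the loss of OXR1A.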

Additional observations from a re-analysis of the deposited data

Results flagged for a closer look

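Among the listed genes outside Cyp2b, the difference between KO and WT livers differed between males and females for 2 genes by a limma interaction adjusted over all 11514 genes. For Slc22a27, higher in 3 of 3 KO males, the male difference exceeded the female one by 2.43 on the log2 scale (adjusted p = 0.0436), and for Selenbp2, lower in 3 of 3 KO males, the interaction was -2.15 (adjusted p = 0.0436). In females Selenbp2 was lower in KO livers too, without being called (log2 difference -1.03, limma adjusted p = 0.345). The calls of Slc22a27 and Selenbp2 were each kept in only 2 of 12 fits that left out 1 library.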

How the results depend on the processing

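All 168 values of the 15 Cyp2b differences under the alternatives kept their sign, and 162 moved by less than the larger group SD. The other values came with a pseudocount of 0.1: for KO against WT males, Cyp2b9 was 6.69 and Cyp2b13 4.68; for WT females against WT males, 9.09 and 9.61; for the difference of the KO effect between the sexes, 6.90 and 3.63. Counts of called genes were less stable, and the cause was not tested. The counts of list genes given here leave out the cell type and sex check markers. KO against WT males gave 294 genes, 174 with no filter on low values, 152 with median-ratio scaling (71 higher, 81 lower), 140 with quantile normalization (61 higher, 79 lower), 132 with the replicate number as a block, 3 in a fit of only the groups compared (1 list gene in place of 16) and 125 without KO male 3, WT female 1 and KO female 1 (sex check traces), an alternative chosen after seeing the data. KO against WT females gave 2 genes, 1 with a pseudocount of 0.1, with a mean of at least 5 FPKM or with median-ratio scaling, 4 with no filter, 6 with only the groups compared (1 list gene, Sult1e1, in place of 0) and 0 without these 3; 706 genes had an unadjusted p under 0.05. The difference of the KO effect gave 3 genes, 5 with a pseudocount of 0.1 or the replicate block, and 2 list genes, 0 with no filter and 1 without these 3. WT females against WT males gave 1539 genes, 904 with a mean of at least 5 FPKM, 525 without these 3 and, split by direction, 1273 higher and 266 lower against 508 and 552 with median-ratio scaling. KO females against KO males gave 423 genes, 216 with only the groups compared, and 123 without these 3 (27 list genes in place of 44). Leaving out each library gave 58 (without WT male 3) to 570 (without KO male 3) genes for KO against WT males and 6 to 23 list genes, 0 to 12 and 0 to 1 for KO against WT females, 1 to 22 and 0 to 8 for the difference, 675 to 2081 for WT females against WT males, and 201 to 637 for KO females against KO males. Whether same-numbered samples are pairs was not settled, and the main fit did not pair them. Deviations of same-numbered KO and WT males correlated at 0.561, 0.114 and -0.268 over genes. Those of KO females and KO males correlated at 0.407, -0.114 and -0.322. The values were -0.064, -0.131 and -0.023 for KO and WT females, and -0.128, -0.291 and -0.15 for WT females and WT males. Depth limited Cyp2b13 in WT males, where 3 fragments, or 0.0682 FPKM in WT male 1, are the limit that a listing of 0 allows, for counting error only.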
